A study of Rattus norvegicus with 6 samples.

Results

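The enzymes of the urea cycle were followed on rat arrays in AR42J, a cell line from a tumour of pancreatic acinar cells, by taking every probe set that the array platform names Cps1, Otc, Ass1, Asl, Arg1 or Arg2. All 6 were present, among 10411 genes with a probe set of their own, and they had 8 of the 15866 probe sets analysed. There were 3 cultures with dexamethasone (100 nM for 48 h) and 3 control cultures (the same medium for 48 h without it), each on an Affymetrix Rat 230A array. Dexamethasone is a synthetic agonist of the glucocorticoid receptor. Cultures of both groups were started from frozen stocks at passage 29 in 3 experiments spread over 5 months, were plated in F-12K medium with 20% serum, and after 24 h were moved to DMEM with 5% serum, the step at which dexamethasone was added to the treated flask. They represent a single transformed line, so p-values describe the spread between these culture pairs. The signal is the MAS5 value, a linear intensity that compares a probe set with itself across arrays. It does not rank 1 gene above another.

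The urea cycle turns ammonia into urea. Its first steps, carbamoyl phosphate synthetase 1 (Cps1) and ornithine transcarbamylase (Otc), lie in mitochondria and make citrulline. Argininosuccinate synthase (Ass1) joins citrulline to aspartate in the cytosol, argininosuccinate lyase (Asl) splits the product into arginine and fumarate, and arginase releases urea and ornithine. The whole cycle runs mainly in liver, where glucocorticoids are known to raise its enzymes. Many other cells keep only Ass1, Asl and an arginase, and use them to remake or consume arginine.

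The response was uneven along the cycle. Ass1 was 15.6-fold higher and Arg2, the mitochondrial arginase, 3.13-fold higher with dexamethasone, each as a ratio of geometric means. Asl and Arg1, the cytosolic arginase of liver, did not pass the test, and Cps1 and Otc were too dim for the main test. Of the 4 members tested, limma called 2 higher and 0 lower at an adjusted p of 0.05. Among all 7051 genes tested, 38.4% were called, and 4 genes are too few to set against that share. The median log2 change was 1.05 over the 4 members tested and -0.04 over all genes tested.

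The trimmed mean signal was nearly equal on all arrays (497.6 to 498.4), so a signal is a share of what its array gave in all. A background level was taken for each array as the highest signal of 27 probe sets for bacterial genes. It was 100.2, 83.7 and 115.9 on the dexamethasone arrays and 54.5, 97.3 and 51.7 on the control arrays, and thus higher on 2 of the 3 treated arrays than on any control array. The acinar label was borne out by 12 acinar markers on the array (of 14 listed), all above background on all 6 arrays. Of these, 9 of 12 tested were higher, beside 17.0% of all genes tested. The summed signals of the 12 were 146020 to 162604 with dexamethasone and 85733 to 102054 in controls. Both tested duct markers were lower, beside 21.4% of all genes tested. The 3 measured duct markers summed to 723.6 to 2040.0 with dexamethasone and 2834.9 to 3984.6 in controls. Of 6 measured markers of macrophages and other blood cells, Ptprc and Itgam were below background on every array, and the summed signal was 429.8 to 593.2 with dexamethasone and 492.3 to 525.3 in controls. Of 5 stromal and endothelial markers, summed at 617.4 to 756.9 with dexamethasone and 464.5 to 557.1 in controls, 2 were tested, and Pecam1 was called higher (1.05, adjusted p = 0.0143), with a control mean under the filter. In a fit with no filter, limma also called Pdgfra higher (adjusted p = 0.0458), with 1 treated array above background. Col3a1 and Vwf were not called there (0.122 and 0.652). In bulk RNA, fewer cells of a type and less RNA per cell cannot be told apart. The part of these marker shifts in the results was not tested.

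**Figure D1:**
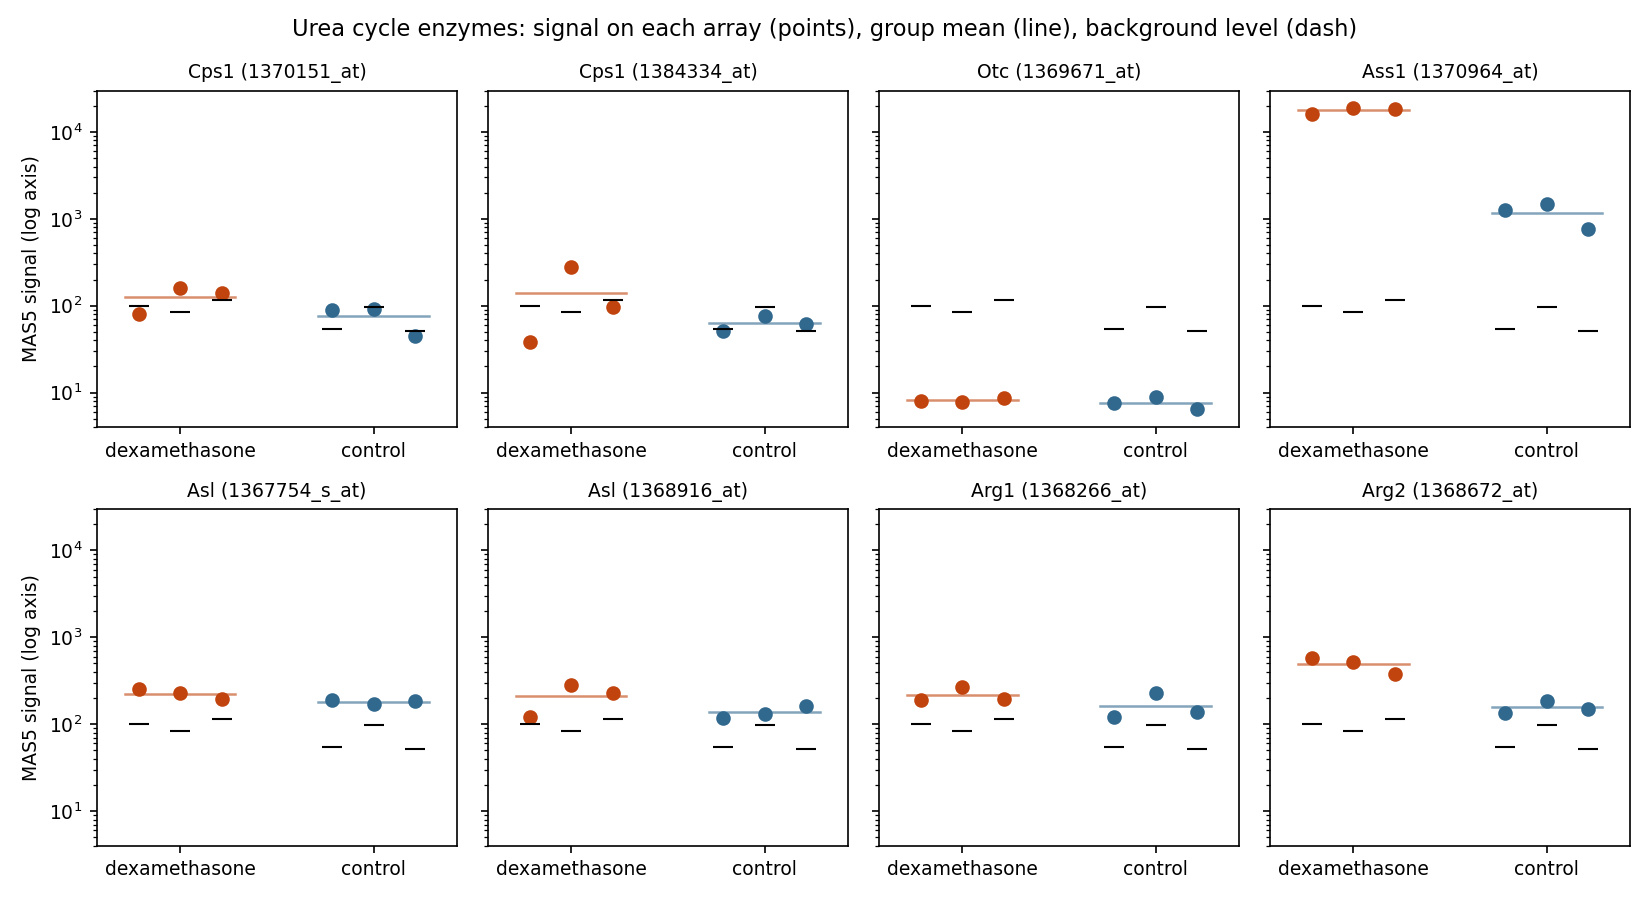
MAS5 signal (log axis) of the 8 probe sets of urea cycle genes on each array, with dexamethasone at the left and control at the right of each panel. Points are arrays, lines are group means and black dashes are each array's background level; Ass1 lies near 1178 in controls and near 17769 with dexamethasone, and Otc is below background on all 6 arrays.

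The mitochondrial entry to the cycle was at or near background in both groups. Otc, which condenses ornithine and carbamoyl phosphate, gave signals of 8.0, 7.8 and 8.6 with dexamethasone and 7.5, 8.9 and 6.5 in controls, below background on all 6 arrays. Such values have no order between groups and allow no fold change. Cps1, which fixes ammonia in the cycle's rate-setting step, had 80.7, 161.1 and 139.2 at probe set 1370151_at with dexamethasone and 90.0, 92.0 and 45.2 in controls. Of these, 2 treated arrays and 1 control array were above background, and the groups overlapped. The other Cps1 probe set, 1384334_at, read 38.1, 280.4 and 97.3 with dexamethasone and 51.8, 77.1 and 62.0 in controls, with 1 array of each group above background.

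Because their mean signal lay under the filter of 147.6, these 3 probe sets were tested only in a fit with no filter, in which limma called 20.9% of 15866 probe sets. None of the 3 was called there. The log2 change of Cps1 was 0.76 ± 0.40 (SE; 95% interval -0.18 to 1.69, adjusted p = 0.234) at the first probe set and 0.69 ± 0.47 (-0.42 to 1.80, adjusted p = 0.360) at the second. In dexamethasone replicate 2 both Cps1 probe sets were at their highest, while in replicate 1 both were below background with dexamethasone. With so many signals at background, these changes are rough.

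Ass1, the enzyme that makes argininosuccinate, carried the largest change of the cycle. Its probe set, 1370964_at, gave 15926, 19046 and 18337 with dexamethasone, against 1268, 1495 and 770.7 in controls. The lowest treated signal was over 10 times the highest control signal, and the spread among treated cultures was small beside the difference. The means were 17769 ± 1636 with dexamethasone and 1178 ± 371 in controls (SD, n = 3 each), a log2 change of 3.96 ± 0.17 (95% interval 3.57 to 4.36, adjusted p = 1.39e-06). Within replicate numbers 1, 2 and 3 the log2 change was 3.65, 3.67 and 4.57, and the largest of these belongs to the pair with the lowest control signal. Of 7051 genes tested, 14 rose by more. The highest signal on the treated arrays was 23616 to 24602, so Ass1 was below the top of the range, but whether its treated signals were compressed there was not tested.

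RefSeq promoter windows in the rat assembly GRCr8 were at hand for 4 of the 6 members, Ass1, Cps1, Otc and Asl. The 250 bases before the listed start of Ass1 are shown as those of the member that changed most, and those of Cps1 as the first enzyme of the cycle, near background in these cells. They lie at chr3:35149480-35149729 (plus strand) for Ass1 and chr9:76063613-76063862 (plus strand) for Cps1, and capitals mark a motif match.
Ass1: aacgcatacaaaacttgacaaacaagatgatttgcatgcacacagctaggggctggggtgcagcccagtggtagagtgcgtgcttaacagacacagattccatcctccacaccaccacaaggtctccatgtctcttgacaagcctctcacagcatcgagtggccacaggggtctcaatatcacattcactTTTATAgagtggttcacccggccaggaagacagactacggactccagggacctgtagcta
Cps1: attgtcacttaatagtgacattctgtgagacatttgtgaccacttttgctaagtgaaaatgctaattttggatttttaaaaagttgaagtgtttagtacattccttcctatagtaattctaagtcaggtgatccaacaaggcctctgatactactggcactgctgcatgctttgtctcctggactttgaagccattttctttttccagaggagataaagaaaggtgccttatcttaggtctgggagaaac

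Both strands of the 4 windows were searched for a half-site of the glucocorticoid receptor (AGAACA) and for TTGCNNAA, the core that C/EBP factors bind. They were also searched for a half-site of the cAMP response element (TGACG), the CCAAT box, the GC box (GGGCGG) and the TATA box (TATAAA). Only 2 matches were found. The Ass1 window holds TATAAA on the minus strand at position -60 from the start, a motif found in 12.9% of 33469 rat windows of the same length. The Asl window holds GGGCGG on the minus strand at position -249, a motif found in 30.5% of windows. AGAACA, found in 17.5% of all windows, is not in any of the 4, nor is the full palindrome of the receptor (0.012% of windows). The listed start of Ass1 lies 4965 bases inside the outer end of the annotated gene, and which start these cells used was not analysed here. A match or its absence in such a window says nothing of binding.

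Asl, which frees arginine and fumarate from argininosuccinate, did not follow Ass1. Probe set 1368916_at, whose source sequence is that of Asl, gave 120.7, 280.2 and 227.0 with dexamethasone, against 118.9, 130.0 and 162.9 in controls. The groups overlapped, and the first pair was nearly equal. Its log2 change was 0.54 ± 0.26 (95% interval -0.04 to 1.12, adjusted p = 0.133), and its control mean of 137.3 ± 22.9 (SD, n = 3) lay under the filter, so that it entered the test through the treated arrays. The brighter probe set named Asl, 1367754_s_at, gave 252.1, 228.3 and 193.3 with dexamethasone, against 192.3, 171.3 and 183.2 in controls, a log2 change of 0.29 ± 0.20 (-0.15 to 0.74, adjusted p = 0.276). These groups did not overlap, though the nearest values were 193.3 and 192.3. The intervals of the change leave room for a rise of up to 1.12 on the log2 scale, and their upper ends lie below the lower end of the Ass1 interval.

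The identity of 1367754_s_at is in doubt. The platform names it Asl, but in RefSeq its accession belongs to Hnrnpab, an RNA-binding protein. The same kind of mismatch was found for 10 of 2847 probe sets that had 1 symbol and a RefSeq accession. The probe set named Hnrnpab read 2496, 2626 and 2297 with dexamethasone and 5496, 4485 and 5744 in controls, so it was lower in all 3 pairs (log2 change -1.08 ± 0.13), while 1367754_s_at was slightly higher in all 3. With either probe set standing for Asl, 2 members were called.

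The arginases differed. Arg2, a mitochondrial enzyme found in many tissues beside liver, gave 574.7, 520.2 and 380.2 with dexamethasone, against 133.4, 186.7 and 148.5 in controls at probe set 1368672_at. Every treated signal was at least as high as 380.2 and no control signal was above 186.7, so the groups were apart. The means were 491.7 ± 100.3 with dexamethasone and 156.2 ± 27.5 in controls (SD, n = 3 each). The log2 change was 1.65 ± 0.20 (95% interval 1.19 to 2.10, adjusted p = 0.000327), with 2.11, 1.48 and 1.36 in pairs 1, 2 and 3. All 6 arrays were above background, and 161 of the 7051 genes tested rose by more.

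Arg1, the arginase of the hepatic cycle and also a product of some macrophages, gave 191.7, 268.3 and 193.7 with dexamethasone, against 122.6, 228.5 and 137.5 in controls at 1368266_at. Each treated culture was above the control of its own number, but control 2 was above dexamethasone 1 and 3. The means were 217.9 ± 43.7 with dexamethasone and 162.9 ± 57.3 in controls (SD, n = 3 each), and the log2 change of 0.46 ± 0.20 did not pass (95% interval -0.01 to 0.92, adjusted p = 0.114). Leaving out control replicate 2 in a fit without pairs gave 0.73 and an adjusted p of 0.0453, and over all alternatives the value ran from 0.21 to 0.73. The intervals of Arg2 and Arg1 did not overlap; the difference between the changes was not tested.

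Over the 5 tested probe sets of the members, the groups did not overlap for 3, those of Ass1, Arg2 and 1367754_s_at, against 49.7% of all 9520 probe sets tested. At the level of probe sets, limma called 2 of these 5 and 37.1% of all those tested. The calls of Ass1 and Arg2 held in each of the 17 alternatives run, with values of 3.66 to 4.16 for Ass1 and 1.38 to 1.82 for Arg2. The fits that left out a whole pair had few arrays, so calls there rest largely on variance pooled over probe sets.

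**Figure D2:**
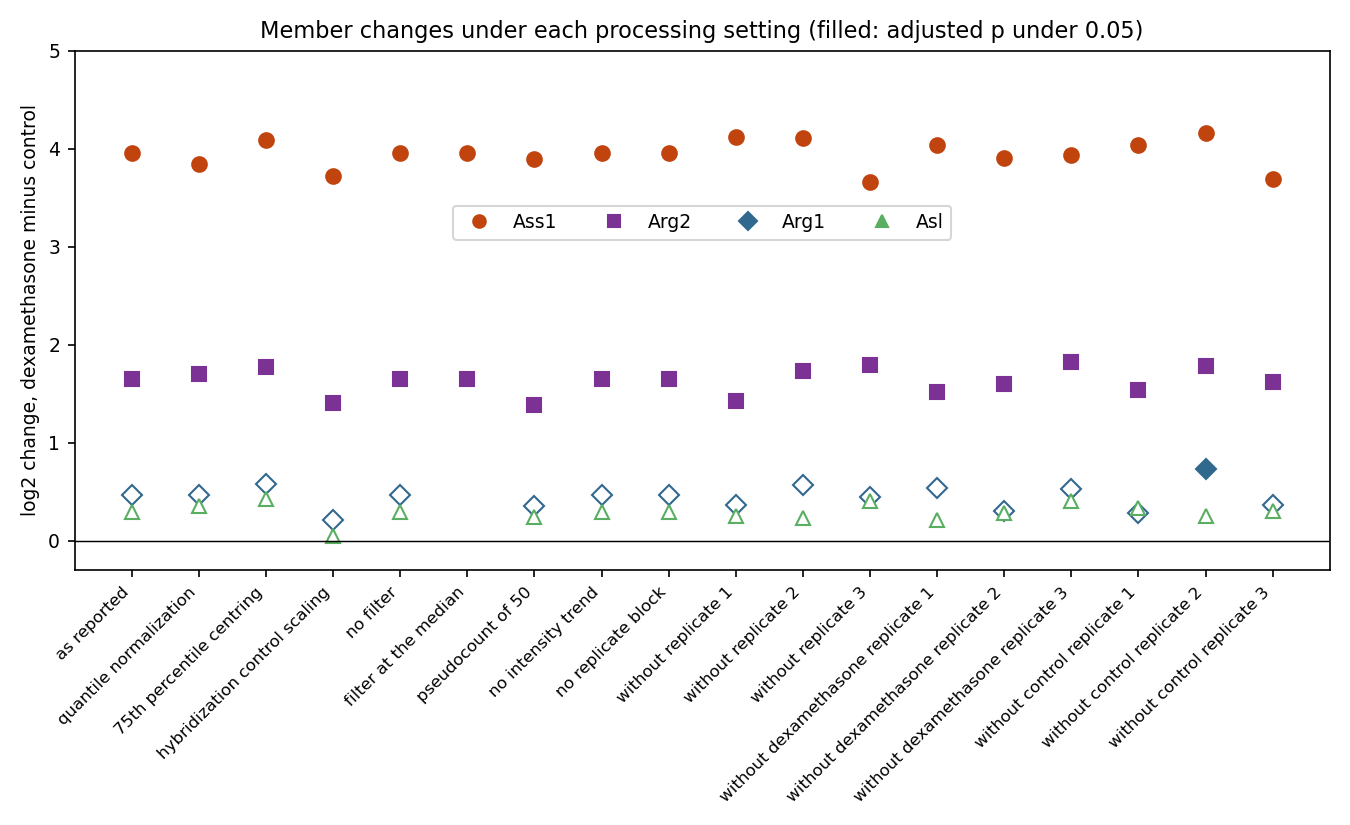
Log2 change (dexamethasone minus control) of the 4 tested members as reported and under the alternatives in processing or arrays used. Filled symbols have an adjusted p under 0.05. The other Asl probe set is not drawn, and Asl and Arg1 have no point with the filter at the median. Ass1 stays between 3.66 and 4.16 and Arg2 between 1.38 and 1.82; Arg1 is filled only without control replicate 2.

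Hepatocyte markers were examined because the cycle is best known from liver. Of 9 on the array, 6 could be tested and 5 were higher, beside 17.0% of all genes tested. Those higher were Ttr, Serpina1, Cyp2e1, Apoa1 and Tat, the last known as a glucocorticoid-induced gene. Ahsg was tested and not called (log2 change -0.02, adjusted p = 0.957). Tat and Cyp2e1 lay under the filter in controls, so their place among the 6 tested rested on the treated arrays. Both were also called with no filter (adjusted p = 3.61e-05 and 0.000105). The summed signal of the 9 was 14416, 26956 and 6128 with dexamethasone, against 2469, 3776 and 1360 in controls. Dexamethasone 3 had the lowest treated sum and an Ass1 signal of 18337, close to the other treated cultures. Control 3 had the lowest sum and the lowest Ass1 signal. The markers in the sum did not share 1 order. Ttr, Serpina1 and Apoa1 were lowest of the treated cultures in dexamethasone 3 (1348, 820.2 and 1100). Tat (960.6, 2003 and 1139) and Cyp2e1 (881.1, 2479 and 1240) were lowest in dexamethasone 1 and highest in dexamethasone 2, as was Ass1. Alb, the albumin gene, was too dim for the main test, with 146.2, 115.2 and 65.8 with dexamethasone and 75.2, 110.1 and 102.9 in controls. Fgb and Apoh were also too dim for the main test. With no filter, limma called Apoh higher (adjusted p = 0.00245) but not Alb or Fgb (0.854 and 0.613). The part of these marker changes in the Ass1 result was not tested. Among macrophage markers, which bear on Arg1, only Csf1r was bright enough to test, and it was not called (log2 change 0.05, adjusted p = 0.861).

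Genes around the cycle (supply, carriers, routes that use its products, transporters and transcription factors) were counted from lists of 72 genes. Of these, 60 were on the array and 45 were tested. Of these 45, 22 rose and 5 fell, that is 48.9% and 11.1%, beside 17.0% and 21.4% of all genes tested. Their median log2 change was 0.38, against -0.04 over all genes tested. The lists were chosen with earlier results of these data known, so the difference from all genes is not a test. Some genes that rose, Cebpb and Adss1 among them, passed the filter only through the treated arrays. The split of higher to lower among the called depended on scaling: 25 to 3 with centring on the 75th percentile, and 16 to 12 with scaling to the hybridization controls. The split over all probe sets moved with it, 1512 to 2019 as reported, 2037 to 1503 with the centring and 778 to 3257 with the scaling, so with the centring higher calls outnumbered lower ones over the whole array too.

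**Figure D3:**
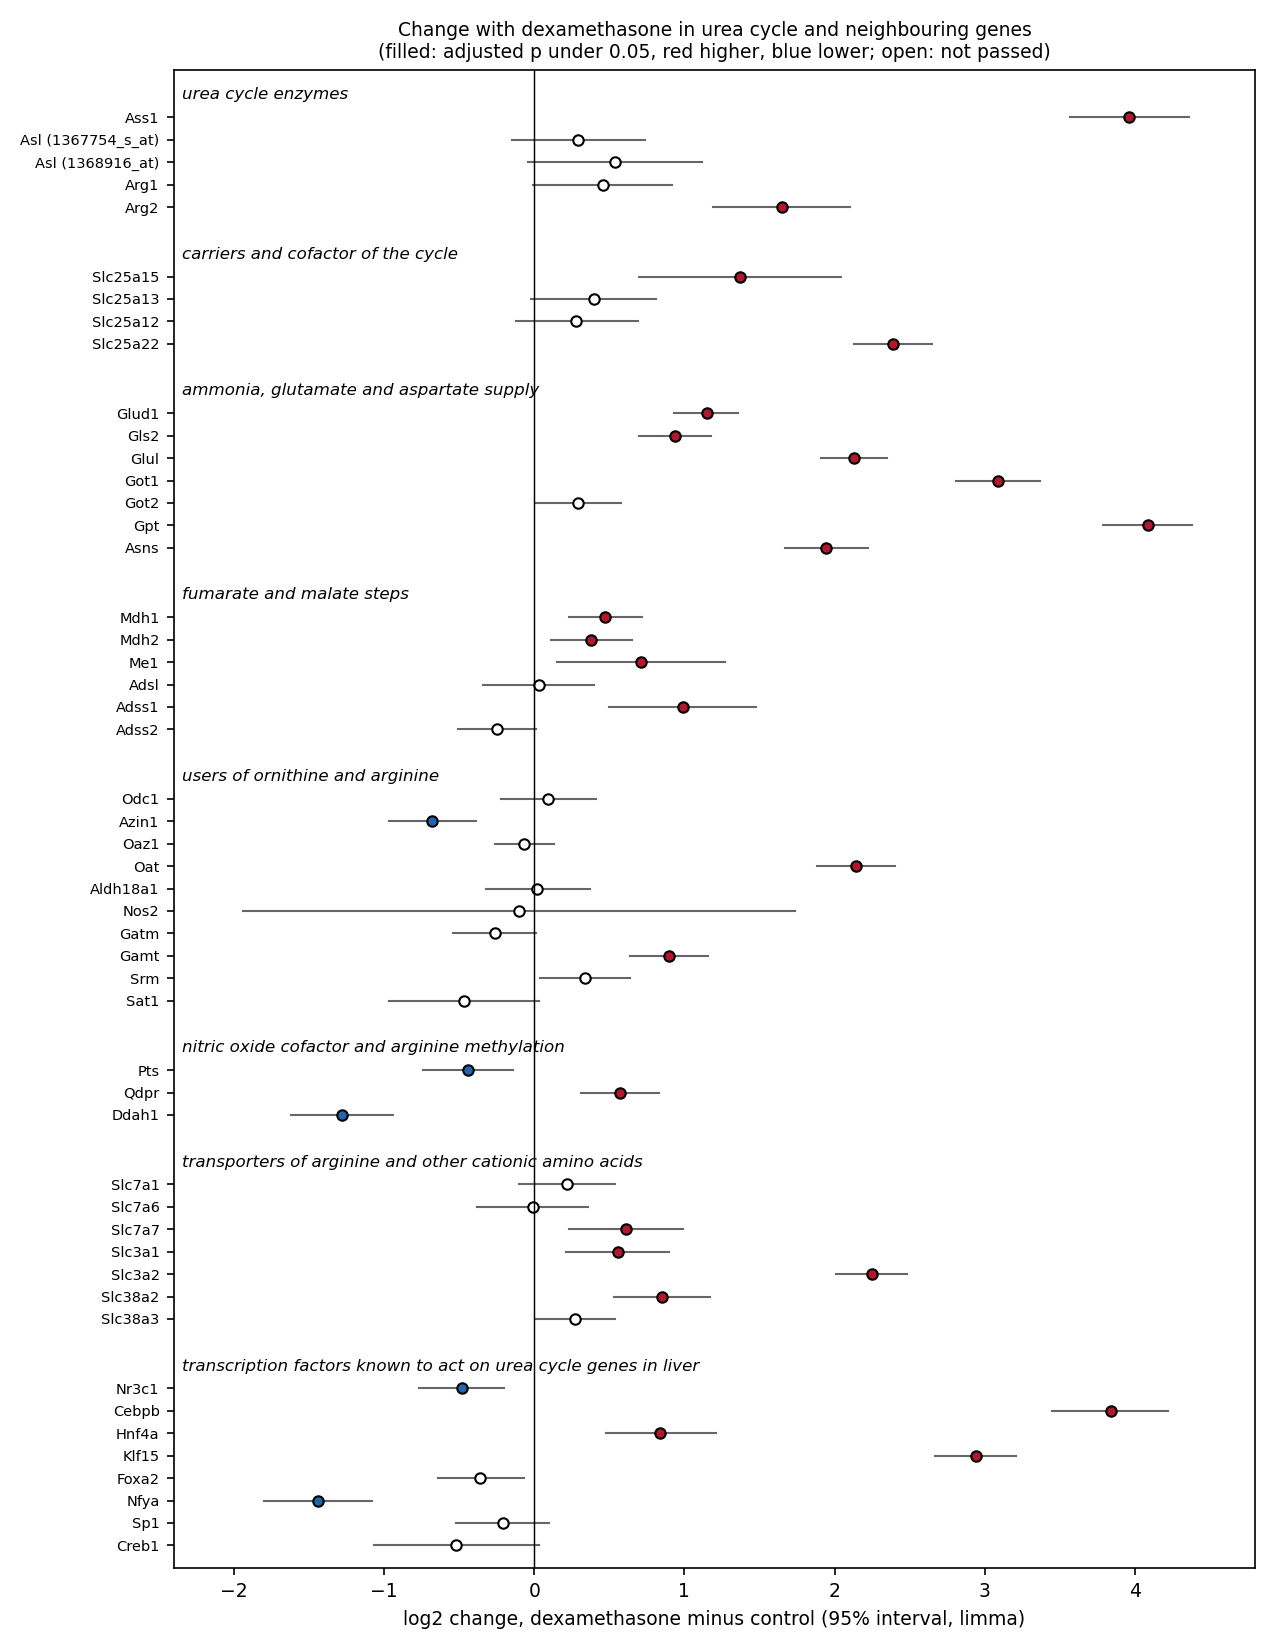
Log2 change (dexamethasone minus control) with its 95% interval for the tested members and the 45 tested neighbouring genes, grouped by role. Filled points passed an adjusted p of 0.05 (red higher, blue lower); Gpt at 4.09 and Ass1 at 3.96 lie farthest to the right.

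Of carriers and cofactor genes, 4 were tested, 2 rose (beside 17.0% of all genes tested) and 2 did not pass. Slc25a15, the carrier that exchanges ornithine and citrulline across the mitochondrial membrane, gave 999.3, 2628 and 1874 with dexamethasone, against 798.0, 552.9 and 647.0 in controls (log2 change 1.37 ± 0.30, adjusted p = 0.00693). Pair 1 changed by 0.32 and pair 2 by 2.25, and without replicate 2 the call was lost (0.93, adjusted p = 0.0596). Slc25a22, a mitochondrial glutamate carrier, gave 4762, 3822 and 4383 with dexamethasone, against 895.0, 780.8 and 791.9 in controls, and rose evenly over the pairs (2.39 ± 0.11, adjusted p = 1.93e-06). Nags, whose product makes the activator of Cps1, was not analysed here.

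Among genes that make or use ammonia, glutamate or aspartate, 6 of 7 tested rose (list median 1.94), beside 17.0% of all genes tested. Gpt, cytosolic alanine aminotransferase, gave 7188, 8249 and 7976 with dexamethasone, against 511.3, 460.9 and 408.5 in controls (4.09 ± 0.13, adjusted p = 3.02e-07). Got1, the cytosolic aspartate aminotransferase, which forms the aspartate that Ass1 can use, gave 3701, 4243 and 3793 with dexamethasone, against 416.1, 465.0 and 496.8 in controls (3.09 ± 0.12, adjusted p = 8.61e-07). Every treated culture was far above every control for both aminotransferases. The mitochondrial form, Got2, did not pass (0.29 ± 0.12, adjusted p = 0.0994). Glul, glutamine synthetase, an alternative route that binds ammonia, gave 21527, 21474 and 22549 with dexamethasone, against 4387, 5549 and 5098 in controls (2.13 ± 0.10, adjusted p = 1.57e-06). Its other probe sets rose by 1.34 and 2.45. The treated signals lay near the top of the range, closer to it than those of Ass1, and whether they were compressed was not tested.

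Of 6 tested genes around fumarate and malate, 4 rose, beside 17.0% of all genes tested, and 2 did not pass (list median 0.42). Fumarate and malate are the path that returns the carbon released by Asl, and the rises here were smaller. The largest were Adss1, an enzyme of adenine nucleotide synthesis that uses aspartate (0.99 ± 0.22, adjusted p = 0.00733), Me1, cytosolic malic enzyme (0.71 ± 0.25, adjusted p = 0.0496), and Mdh1, cytosolic malate dehydrogenase (0.47 ± 0.11, adjusted p = 0.00924). The control mean of Adss1 lay under the filter, so it was tested through the treated arrays (adjusted p with no filter 0.0236). The call of Me1 was lost in 11 of 17 alternatives, with 0.29 without replicate 2. That of Adss1 was lost without replicate 2 (0.80) and without control replicate 3 (0.87), and that of Mdh1 without replicate 1 (0.40) and when arrays were scaled to the hybridization controls (0.23). At the other Mdh1 probe set the change was 0.20 ± 0.15 and missed the threshold (adjusted p = 0.335), while the other Me1 probe set passed (0.80 ± 0.21, adjusted p = 0.0171).

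Of 10 tested genes of the routes that use ornithine and arginine, regulators included, 2 rose, 1 fell and 7 did not pass. Among all genes tested, 17.0% were called higher and 21.4% lower, and 10 genes are too few to set against these shares. Oat, ornithine aminotransferase, which converts ornithine toward glutamate and proline, gave 6280, 6340 and 8294 with dexamethasone, against 1489, 1588 and 1621 in controls (2.14 ± 0.11, adjusted p = 2.89e-06). Gamt, which makes creatine, rose by 0.90 ± 0.11 (adjusted p = 0.00039), and Azin1, an inhibitor of antizyme, fell by 0.68 ± 0.13 (adjusted p = 0.00348), as did its other probe set by 0.50. Odc1, ornithine decarboxylase, the entry to polyamines, gave 4577, 3829 and 3128 with dexamethasone, against 3515, 3345 and 3832 in controls, with overlapping groups (0.09 ± 0.14, 95% interval -0.22 to 0.41, adjusted p = 0.631).

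Nitric oxide synthases, which also consume arginine, gave no called change. Nos2, the inducible form, ranged from 61.5 to 367.2 with dexamethasone and from 41.1 to 488.0 in controls, with 2 arrays of each group above background (-0.10 ± 0.81, adjusted p = 0.937). Without replicate 1 its change was -1.73 and passed (adjusted p = 0.00395), while without replicate 2 it was 0.89. Nos1 and Nos3 were too dim for the main test. Of 3 tested genes of the nitric oxide cofactor and of arginine methylation, Ddah1, which clears methylated arginines that inhibit the synthases, fell to 302.9, 383.5 and 233.2 with dexamethasone, against 665.7, 918.5 and 633.4 in controls (-1.28 ± 0.15, adjusted p = 0.00026). Qdpr, which regenerates the tetrahydrobiopterin cofactor, rose by 0.57 ± 0.12 (adjusted p = 0.00526), a call lost in 3 of 17 alternatives. Pts, which acts in the synthesis of that cofactor, fell by 0.44 ± 0.13 (adjusted p = 0.0304), a call lost in 7 of 17.

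Among amino acid transporters, 4 of 7 tested rose, beside 17.0% of all genes tested, and 3 did not pass (list median 0.56). Slc3a2, the heavy chain shared by several exchangers, gave 8356, 7007 and 6951 with dexamethasone, against 1675, 1465 and 1556 in controls (2.25 ± 0.10, adjusted p = 1.57e-06). Slc38a2, which carries neutral amino acids, rose by 0.85 ± 0.14 (adjusted p = 0.00174). Slc7a7, a light chain that exports cationic amino acids, rose by 0.61 ± 0.17 (adjusted p = 0.0212), a call lost in 3 of 17 alternatives, with 0.43 without replicate 2. Slc7a1, the main arginine importer of many cells and named after its values were seen, did not pass at its brightest probe set (0.22 ± 0.14, adjusted p = 0.260) but did at another (0.50 ± 0.13, adjusted p = 0.0164).

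Of 8 tested transcription factors known to act on urea cycle genes in liver, 3 rose, 2 fell and 3 did not pass. Over all genes tested, 17.0% were called higher and 21.4% lower. Cebpb gave 1162, 1723 and 1449 with dexamethasone, against 97.3, 122.3 and 83.4 in controls (3.84 ± 0.17, adjusted p = 1.4e-06). Its control mean lay under the filter, so it was tested through the treated arrays, and it was also called with no filter (adjusted p = 3.34e-05). Klf15, a factor known to act on amino acid breakdown, gave 7437, 7440 and 9561 with dexamethasone, against 990.4, 1113 and 1070 in controls (2.94 ± 0.12, adjusted p = 8.61e-07). Nfya, a subunit of the factor that binds CCAAT, fell by 1.44 ± 0.16 (adjusted p = 0.000185), though at another probe set its change of -0.37 ± 0.16 did not pass (adjusted p = 0.0937). Nr3c1, the glucocorticoid receptor, fell by 0.48 ± 0.13 (adjusted p = 0.0157), a call lost in 5 of 17 alternatives. Cebpa and Ppargc1a were below background on all 6 arrays.

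Finally, each called member was set against the other tested genes by the distance between log2 signals over the 6 arrays, each gene centred on its own mean. Nearest to Ass1 were Cebpb (distance 0.46), Ehhadh (0.48), a peroxisomal enzyme of fatty acid oxidation, and Gpt (0.57). Ehhadh gave 831.1, 776.5 and 768.4 with dexamethasone, against control signals of 48.3, 74.9 and 27.9 that were all below background, and was thus at least 12.2-fold higher in treated cultures (adjusted p = 1.03e-05). It too was tested through the treated arrays, and its adjusted p with no filter was 0.000191. Nearest to Arg2 were Zg16 (0.22), a zymogen granule protein, Bhlhe40 (0.32), a transcriptional repressor of the clock, and Ninj1 (0.33), a membrane protein of cell rupture. They rose by 1.72, 1.80 and 1.42 on the log2 scale. With Arg2, Zg16 and Ninj1 shared the order of treated cultures, highest in dexamethasone 1 and lowest in dexamethasone 3. The likeness rests on 6 arrays that fall into 2 groups, so it mostly restates the size of the change.

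**Figure D4:**
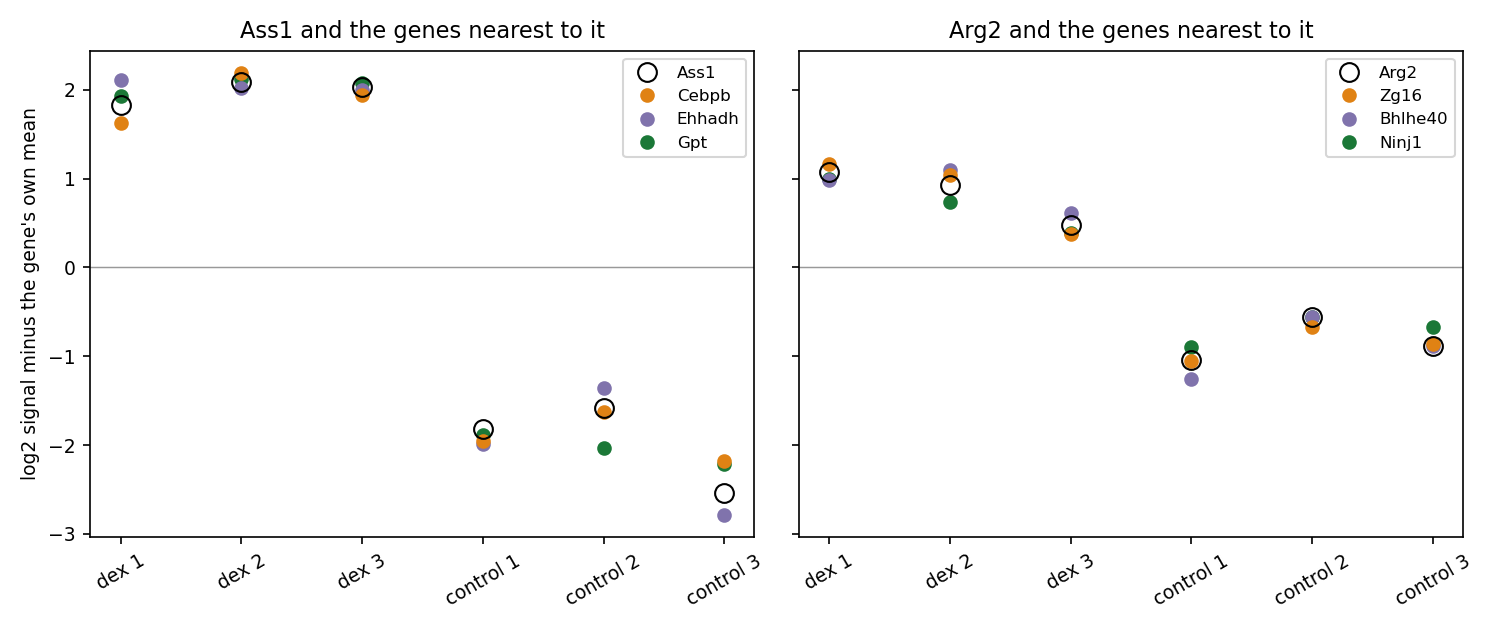
Log2 signal minus the gene's own mean over the 6 arrays for Ass1 (left) and Arg2 (right), as open circles, and the 3 genes nearest to each, as filled circles, with dexamethasone cultures before controls. Treated and control values of Ass1 lie about 3.96 apart on average, those of Arg2 about 1.65 apart.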

How the data were processed

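Total RNA of 6 AR42J cultures was measured on Affymetrix Rat 230A arrays. The deposited values are 1 linear MAS5 intensity per probe set and array, for which the submitters' processing notes name the programs GCOS and MAS5; versions, scaling settings and detection calls are not given in the sources used here. Of 15923 probe sets, 57 were controls. Names came from the platform annotation, updated through the NCBI gene table (GRCr8): 12783 probe sets had 1 symbol, 312 several and 2771 none here. Where several probe sets had 1 and the same symbol, the one brightest on average (log2) stood for the gene.

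Signals of 0 (4 in number) were set to 0.1 before log2. Probe sets at or above the 40th percentile of mean log2 signal (147.6 as a signal) were tested, 9520 in all, with limma 3.58.1 in R 4.3.3 (lmFit and eBayes, trend on), replicate number as a block, and Benjamini-Hochberg adjustment over all of them. Background was the highest of 27 Bacillus subtilis control probe sets; a bound ("at least") sets the brighter group against the higher of background and own signal. The pairs come from the series' design text; same-numbered arrays correlated by -0.095, 0.112 and 0.211 in their deviations from the group means, so the data alone do not bear out the numbers. No array pair shared more than 47 identical values of 15866. The script was tested on simulated data. With 3 arrays per group, precision is limited by their number.

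Members and lists were chosen with earlier results of these data known. Named genes were, per list, all called or the 3 with the largest changes, plus Nr3c1, Nags, Slc25a15, Odc1, Oat and Nos2, and the 3 genes nearest to each called member. Alternatives changed normalization, scaling, filter, pseudocount, trend, block, replicates and the probe set that stands for a gene.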

Additional observations from a re-analysis of the deposited data

How the results depend on the processing

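The number of members called was 2 as reported and 2 to 3 over the alternatives, that of neighbouring genes 27 and 21 to 33, and that of all probe sets 3531 and 2461 to 4035. The third member called was Arg1, without control replicate 2, and its change ran from 0.28 to 0.73 when arrays or pairs were left out. Without the replicate block 2 members, 27 neighbouring genes and 3542 probe sets were called, Ass1 changed by 3.96 and no member's call differed. The sign of changes that were not called turned for Odc1 and Nos2. Odc1 was at 0.09 as reported, -0.08 with quantile normalization, -0.15 with hybridization control scaling and -0.05 to 0.29 with arrays or pairs left out. Nos2 was at -0.10 as reported, 0.03 with 75th percentile centring and -1.73 to 0.89 with arrays or pairs left out. The cause was not tested. Hybridization control scaling moved the median change of all probe sets tested to -0.29, from -0.05 as deposited, and 75th percentile centring to 0.08; the changes of Ass1 were 3.72 and 4.09 there. Asl and Arg1 were not tested with the filter at the median. The probe set whose accession is that of Asl, an alternative added to the member count after the data were seen, gave 0.54 and left the count at 2. Signals near background limit what can be said of Cps1, Otc, Nos1 and Nos3.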

Other observations

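Of 15 neighbouring genes on the array that were too dim for the main test, 4 were called in the fit with no filter, in which 20.9% of all probe sets were called, and they are named here after their values were seen. Prodh, proline dehydrogenase, which opens the breakdown of proline and meets ornithine breakdown at the same intermediate, gave 822.2, 525.0 and 832.0 with dexamethasone, and 21.5, 23.4 and 19.5 in controls. It was below background on all control arrays, so it was at least 10.9-fold higher (limma, no filter, adjusted p = 7.85e-05), while its other probe set was below background on all 6 arrays. Its mean over both groups lay under the filter, although all 3 treated signals were above background. Car5a, a mitochondrial carbonic anhydrase that supplies bicarbonate to Cps1 in liver, gave 76.7, 187.1 and 110.7 with dexamethasone, with 1 array above background, and 13.9, 14.6 and 14.3 in controls, none above it. It was called in that fit (adjusted p = 0.00298), but with only 1 treated array above background no fold is given.

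The other 2 of these genes fell. Ddah2, from the same list as Ddah1, gave 4.3, 3.6 and 18.0 with dexamethasone, all below background, and 166.3, 272.9 and 173.2 in controls, all above it. It was at least 2.01-fold lower (limma, no filter, adjusted p = 0.00178). Sms, spermine synthase, gave 44.1, 37.8 and 139.6 with dexamethasone, with 1 array above background, and 238.5, 175.8 and 295.3 in controls (adjusted p = 0.00842), and no fold is given for it either.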
